A study of Mus musculus with 50 samples.

Results

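Kruppel-like factors are zinc-finger transcription factors, and the genes described here are 8 of them: Klf2, Klf3, Klf4, Klf6, Klf7, Klf10, Klf11 and Klf13. They were picked by gene symbol, and 1 row of the count table carried each symbol, so all 8 were found among the 53700 genes counted. A total of 16696 genes, and all 8 members, had at least 1 CPM (counts scaled to the library's total) in more than 2 mice and were tested. The RNA came from microglia, the resident macrophages of the brain, which had been sorted as CD45int CD11b+ cells from the hippocampus of male C57BL/6J mice, 50 mice in all. Mice exposed to early-life stress (ELS) were raised with limited bedding and nesting material from postnatal day (P) 2 to P9, and control (CTR) mice in standard nests. Untreated mice were taken at P9, 12 CTR and 13 ELS. The other mice were injected at P200 with PBS (7 CTR and 6 ELS) or with 1 mg/kg lipopolysaccharide (LPS), a bacterial cell wall component (7 CTR and 5 ELS), and were taken 3 hours later. These 6 groups are called P9-CTR, P9-ELS, CTR-PBS, ELS-PBS, CTR-LPS and ELS-LPS below, the last 4 all being P200 groups. The ELS model acts through the dam and the nest. The labels do not define the first number in the name of a mouse, which was taken here as its nest. Within an age each such number belonged to CTR or to ELS, so if it is the nest, condition and nest cannot be told apart. At P200 the tissue passed through a Percoll gradient before sorting and at P9 it did not. The P200 mice had also been injected, and the ages were separate cohorts. Age therefore cannot be told apart from isolation, injection or cohort either.

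The family shares a carboxy-terminal block of zinc fingers that binds GC-rich and CACCC sequences, while the amino-terminal part differs between members and sets the partners. Klf2, Klf4, Klf6 and Klf7 belong to the branch that recruits acetyltransferases and mostly activates genes, Klf3 to the branch that recruits the corepressor CtBP, and Klf10, Klf11 and Klf13 to the branch that recruits the corepressor Sin3. Several of them are known as early response genes, and in macrophages and endothelium Klf2 and Klf4 are known as brakes on NF-κB-driven inflammation. Klf10 and Klf11 were first described as early genes induced by TGF-β, a cytokine that microglia need to keep their identity.

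The positions below are those of the GENCODE M39 annotation on GRCm39, the build of the count files. Klf2 (ENSMUSG00000055148) lies on the plus strand of chromosome 8 at 73072726 to 73075502. Klf4 (ENSMUSG00000003032) lies on the minus strand of chromosome 4 at 55527139 to 55532528. Klf6 (ENSMUSG00000000078) lies on the plus strand of chromosome 13 at 5911481 to 5920393. These are compact genes, whereas Klf7 (ENSMUSG00000025959) spans 64068606 to 64161508 on the minus strand of chromosome 1. Klf3 (ENSMUSG00000029178) is on chromosome 5, plus strand, 64959875 to 64990261. Klf10 (ENSMUSG00000037465) is on chromosome 15, minus strand, 38291703 to 38300959. Klf11 (ENSMUSG00000020653) is on chromosome 12, plus strand, 24701273 to 24712913, and Klf13 (ENSMUSG00000052040) is on chromosome 7, minus strand, 63536099 to 63588663. Klf2 sits inside Eps15l1, which is read from the opposite strand, but 0 exon bases are shared. Exons of Klf3 share 643 bases (4.3%) with the antisense gene Gm20033, exons of Klf10 62 bases (1.5%) with Gm35248 and exons of Klf7 7 bases with Gm13748. The strand setting of the counting was not given in the sources used here, so reads from those stretches cannot be assigned with certainty.

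Promoter sequence is shown for the 3 members with the largest changes after LPS and for Klf6, the most abundant member, which passed the test after LPS in neither condition. The windows are the 250 bases before the annotated start of the canonical transcript, read from GRCm39 and written 5′ to 3′ on the strand of the gene. They are chr8:73072476-73072725 (plus strand) for Klf2, chr4:55532529-55532716 (minus strand) for Klf4, chr15:38300960-38301209 (minus strand) for Klf10 and chr13:5911231-5911480 (plus strand) for Klf6. For Klf4 the 62 bases next to the start are left out because they are exonic in a longer transcript, which leaves 188. Capitals mark every match to the motifs searched.
Klf2: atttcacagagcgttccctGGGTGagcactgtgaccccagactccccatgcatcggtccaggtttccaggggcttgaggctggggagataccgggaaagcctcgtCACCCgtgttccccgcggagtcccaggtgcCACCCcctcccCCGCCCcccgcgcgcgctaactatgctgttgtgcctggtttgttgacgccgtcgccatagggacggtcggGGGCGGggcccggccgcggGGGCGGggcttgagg
Klf4: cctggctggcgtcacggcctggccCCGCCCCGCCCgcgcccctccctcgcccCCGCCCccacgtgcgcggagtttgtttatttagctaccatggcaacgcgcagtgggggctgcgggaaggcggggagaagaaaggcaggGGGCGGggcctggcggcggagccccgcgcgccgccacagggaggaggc
Klf10: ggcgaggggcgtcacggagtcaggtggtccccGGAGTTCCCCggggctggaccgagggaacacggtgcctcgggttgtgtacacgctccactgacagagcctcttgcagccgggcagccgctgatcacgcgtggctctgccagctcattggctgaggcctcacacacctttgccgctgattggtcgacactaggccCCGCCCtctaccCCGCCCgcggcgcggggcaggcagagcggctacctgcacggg
Klf6: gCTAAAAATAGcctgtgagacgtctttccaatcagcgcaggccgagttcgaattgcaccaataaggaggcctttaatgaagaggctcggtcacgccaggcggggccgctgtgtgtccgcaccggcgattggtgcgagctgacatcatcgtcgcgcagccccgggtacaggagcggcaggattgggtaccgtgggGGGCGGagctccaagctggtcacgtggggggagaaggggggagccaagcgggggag
The motifs were CACCC and GGGCGG, to which the family itself binds, TGACGTCA of cAMP-responsive promoters, TGANTCA of AP-1 sites, and the NF-κB, CArG and MEF2 consensus motifs, each on both strands, with overlaps between motifs allowed. All 8 members held GGGCGG in the full 250 bases, as did 36.3% of 21757 protein-coding promoter windows of the same length. Klf3 had the most matches, 8, and Klf6 had 1. CACCC was found in Klf2, Klf3 and Klf13, that is in 3 of 8 windows, against 52.9% of all windows. A match to the NF-κB consensus was found in Klf10 only, beginning 218 bases before the start, and 4.2% of all windows held one. Klf6 alone had a match to the MEF2 consensus, beginning 249 bases before the start, against 2.8% of all windows. TGACGTCA, TGANTCA and the CArG consensus matched 0 of the 8 windows, and 1.7%, 6.2% and 1.4% of all windows. The windows were GC-rich, from 63.2% in Klf6 to 82.4% in Klf3, against quartiles of 46.0% and 60.8% over all windows. These matches are letters in a window, and binding was not measured.

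Libraries held 5152838 to 42231258 counts each. The summed level of 9 microglial markers was 35750 to 71240 CPM at P9 and 60000 to 85330 CPM at P200. In comparison, the summed markers reached at most 68.5 CPM for endothelial cells, 11.0 CPM for monocytes, 3.68 CPM for neutrophils and 2.07 CPM for lymphocytes in any mouse. At P9 the 6 markers of border macrophages summed to 475 to 920 CPM, and at P200 to at most 11.4 CPM. A set of 3 libraries stood apart by the number of genes detected. Mouse P9_19.3_ELS had 12482 genes and the lowest total count, mouse P9_19.2_ELS had 15731 genes, and mouse P200_1.1_CTR_PBS had 12854 genes, and these bear on Klf2, Klf4 and Klf11 below.

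Levels of different genes are compared per kilobase of exon (CPM per kb), since longer transcripts collect more counts. Klf6 was the most abundant member in all 6 groups, at 32.5 ± 3.38 CPM per kb (SD, n = 12) in P9-CTR and 64.8 ± 5.03 CPM per kb (SD, n = 7) in CTR-PBS. Klf6 is known as a factor induced by injury and is expressed in many tissues. In CTR-PBS mice Klf10 followed at 10.0 ± 2.39 CPM per kb, then Klf13 at 8.44 ± 2.28, Klf7 at 8.08 ± 1.44 and Klf3 at 6.505 ± 0.547. The ranges of these neighbours overlapped from Klf10 down to Klf3, so their order was not separated by the spread between mice, whereas Klf6 lay above Klf10 in all 7 mice with no overlap. Klf11 (1.22 ± 0.877 CPM per kb) lay below Klf3 without overlap. Klf2 (0.169 ± 0.177) and Klf4 (0.0945 ± 0.111) were near the limit of detection, and each overlapped its neighbour. In the ELS-PBS mice Klf6 was again first, and Klf4 (0.356 ± 0.497 CPM per kb, n = 6) and Klf2 (0.302 ± 0.396) were again the lowest pair. Their order was not separated, since Klf4 lay above Klf2 in only 2 of the 6 mice. With the length of the longest annotated transcript in place of the exon union, Klf6 stayed first in all groups except CTR-LPS, where Klf10 came first.

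Klf6 alone made up 65.3% ± 3.38 (SD, n = 7) of the summed CPM per kb of the 8 genes in CTR-PBS mice and 61.5% ± 3.61 (SD, n = 6) in ELS-PBS mice. After LPS its share was 39.2% ± 3.68 (SD, n = 7) in CTR mice and 42.2% ± 14.3 (SD, n = 5) in ELS mice. Over the same groups the share of Klf10 went from 9.99% ± 1.92 and 9.25% ± 3.01 with PBS to 33.6% ± 5.40 and 31.6% ± 8.16 with LPS. The lowest LPS-treated mouse had a Klf10 share of 19.12% and the highest PBS-treated mouse 13.6%, so the groups did not overlap. At P9 the shares lay between, with Klf6 at 45.7% ± 3.70 (SD, n = 12) and Klf10 at 23.2% ± 6.09 in CTR mice, and Klf6 at 49.0% ± 6.32 (SD, n = 13) and Klf10 at 21.6% ± 6.33 in ELS mice.

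**Figure D1:**
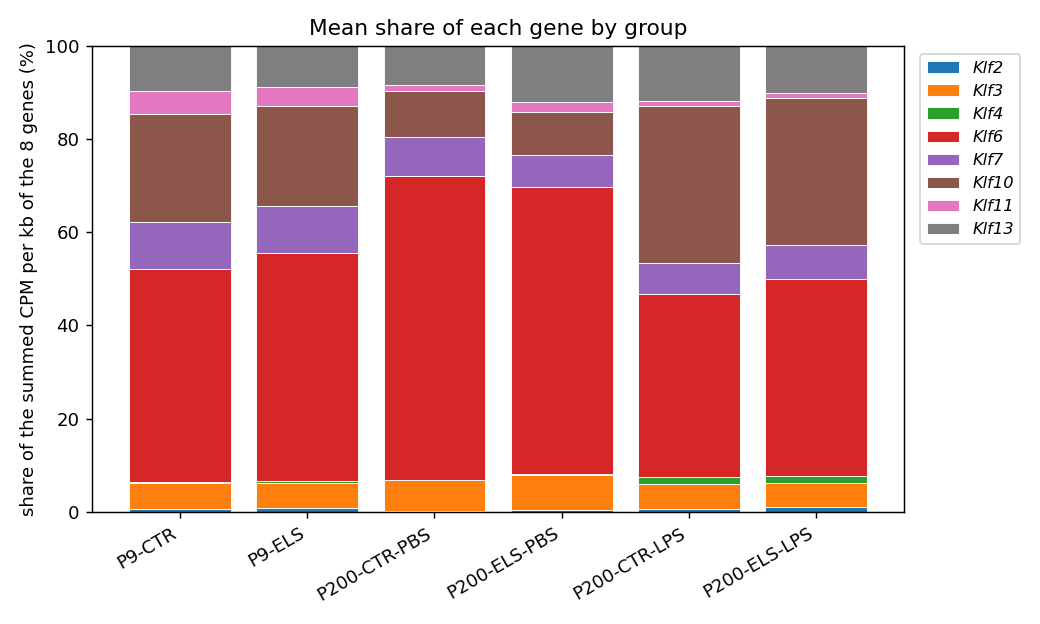
Mean share, in percent, of each of the 8 genes in their summed CPM per kb of exon, as stacked bars for the 6 groups. Klf6 takes 65.3% of the CTR-PBS bar and 39.2% of the CTR-LPS bar, and Klf10 takes 9.99% and 33.6% of them.

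To ask how the 8 genes responded to a systemic immune challenge, LPS-injected mice were compared with PBS-injected mice within each condition, with all P200 and P9 groups in 1 model. In CTR mice 6 of 8 members were higher after LPS (Klf2, Klf3, Klf4, Klf7, Klf10 and Klf13) and 0 were lower, against 8.73% of all genes tested that were higher and 6.2% that were lower. In ELS mice 4 of 8 were higher (Klf2, Klf4, Klf7 and Klf10) and 0 were lower, against 7.4% and 4.94% of all genes. A call here is an adjusted p under 0.05 (edgeR quasi-likelihood test, Benjamini-Hochberg over 16696 genes) with an absolute log2 fold change above 0.1. The median log2 fold change of the 8 genes was 1.19 in CTR mice and 0.91 in ELS mice, beside medians of 0.005 and -0.035 over all genes tested. Summed over the 8 genes, CTR-PBS mice had 567 ± 37.1 CPM (SD, n = 7), CTR-LPS mice 1127 ± 157 CPM (SD, n = 7), ELS-PBS mice 569.5 ± 67.2 CPM (SD, n = 6) and ELS-LPS mice 1060.0 ± 66.9 CPM (SD, n = 5).

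**Figure D2:**
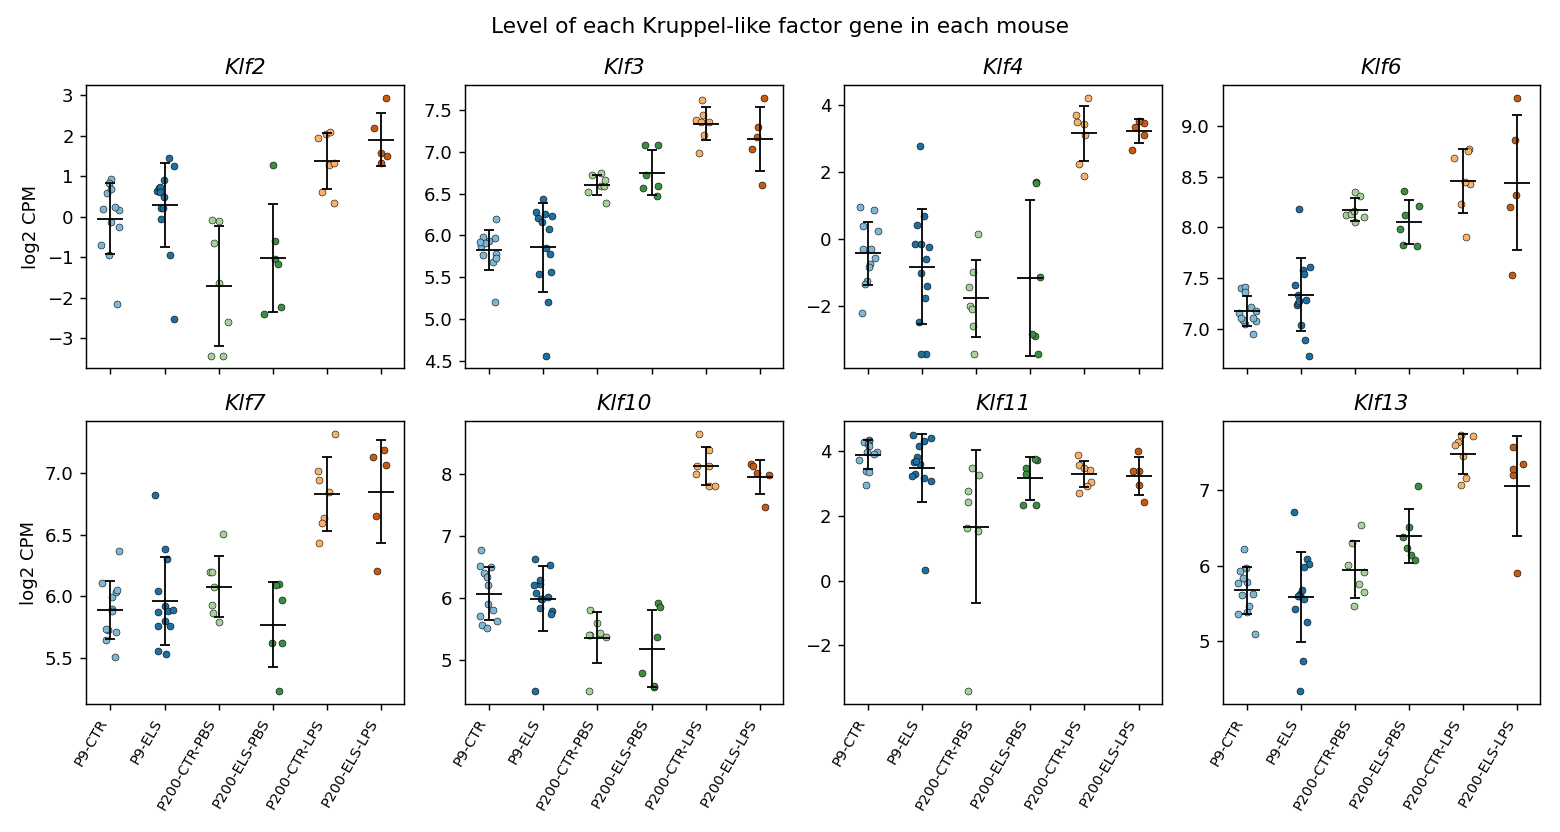
Level of each gene in log2 CPM (vertical axis, a separate scale for each gene) in each mouse (points) by group, with the group mean and SD as black bars. The LPS groups of Klf4 and Klf10 lie wholly above the PBS groups, while those of Klf6 and Klf11 overlap them.

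Klf10, a Sin3-binding factor known to act downstream of TGF-β, had the lowest adjusted p of the 8 genes in both conditions. Its level in CTR-PBS mice had a lowest value of 22.5, a median of 41.9 and a highest value of 55.5 CPM, and in CTR-LPS mice 224, 279.6 and 403 CPM. ELS-PBS mice had 23.4, 34.3 and 60.4 CPM as lowest, median and highest value, and the 5 ELS-LPS mice had 178, 254, 258, 281 and 286 CPM. Every LPS-treated mouse was above every PBS-treated mouse and above every P9 mouse, whose highest value was 109 CPM. LPS over PBS gave a log2 fold change of 2.77 ± 0.24 (SE) in CTR mice (adjusted p = 3.82e-13) and 2.69 ± 0.27 in ELS mice (adjusted p = 2.58e-11). The difference between the conditions was -0.075 on the log2 scale, with a 95% interval of -0.77 to 0.62.

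Klf4, known for its part in pluripotency and in macrophage polarization, showed in CTR mice the largest fold change of the 8 genes from the lowest mean level. CTR-PBS mice had 0 (mouse P200_1.1_CTR_PBS) to 1.02 CPM with a median of 0.156, and CTR-LPS mice had 3.60 to 18.6 CPM with a median of 10.8. In ELS-PBS mice Klf4 had a lowest value of 0, a median of 0.207 and a highest value of 3.17 CPM. ELS-LPS mice had 6.21, 8.63, 10.1, 11.0 and 11.5 CPM, all above the PBS-treated mice. On the log2 scale the change was 4.99 ± 0.94 (SE) in CTR mice (adjusted p = 6.42e-05) and 3.08 ± 0.93 in ELS mice (adjusted p = 0.0203). The distance between these 2 values, -1.91 on the log2 scale, had a 95% interval of -4.36 to 0.54 (adjusted p = 0.91). Of the ELS-PBS mice, P200_4.1_ELS_PBS had 3.17 and P200_11.1_ELS_PBS 3.10 CPM, while the other 4 ELS-PBS mice had at most 0.367 CPM. Without P200_4.1_ELS_PBS the log2 fold change of Klf4 in ELS mice was 3.75 and without P200_11.1_ELS_PBS it was 3.68, and in CTR mice it was 5.74 without P200_18.2_CTR_PBS.

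Klf2, which holds T cells and endothelium in a quiescent state, also stood near 0 with PBS. CTR-PBS mice had 0 to 0.851 CPM with a median of 0.229, CTR-LPS mice 1.18 to 4.15 CPM with a median of 2.40. For ELS-PBS mice the lowest, median and highest values were 0.0958, 0.375 and 2.33 CPM, and ELS-LPS mice had 2.40, 2.75, 2.88, 4.45 and 7.54 CPM. The groups did not overlap in either condition, although in ELS mice the highest PBS-treated mouse, P200_20.2_ELS_PBS with 2.33 CPM, lay next to the lowest LPS-treated mouse, with 2.40 CPM. The log2 fold change was 2.91 ± 0.69 (SE) in CTR mice (adjusted p = 0.00166) and 2.64 ± 0.74 in ELS mice (adjusted p = 0.0116), and 3.68 in ELS mice without P200_20.2_ELS_PBS. In all mice together Klf2 had 0 to 142 counts, so each of these levels rests on few reads. Klf2 had 0 counts in 2 mice, Klf4 in 4 and Klf11 in 1. A count of 0 allows a level of up to 3 counts, which was 0.105 to 0.582 CPM in these libraries, and this limit covers counting error only.

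Klf7, known for its role in neuronal differentiation, rose in both conditions from a much higher level. Lowest, median and highest values were 55.23, 67.2 and 90.9 CPM in CTR-PBS mice and 86.3, 115 and 160 CPM in CTR-LPS mice. They were 37.5, 55.9 and 68.5 CPM in ELS-PBS mice, and the ELS-LPS mice had 73.9, 100.2, 134, 140.1 and 146 CPM. The CTR groups overlapped by a narrow margin and the ELS groups did not overlap. Its log2 fold change was 0.76 ± 0.17 (SE) in CTR mice (adjusted p = 0.000999) and 1.09 ± 0.19 in ELS mice (adjusted p = 3.25e-05).

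Klf6 did not pass the test in either condition. It had 265.5, 281 and 325 CPM as lowest, median and highest value in CTR-PBS mice and 239.6, 348 and 436 CPM in CTR-LPS mice. In ELS-PBS mice these were 226, 265 and 327 CPM, and the ELS-LPS mice had 185, 294, 319, 465 and 619 CPM. The ELS-LPS mice thus spread from below to above all ELS-PBS mice, with P200_20.1_ELS_LPS the lowest and P200_11.2_ELS_LPS the highest. LPS over PBS gave a log2 fold change of 0.31 ± 0.17 (SE, adjusted p = 0.245) in CTR mice and 0.49 ± 0.19 (adjusted p = 0.0811) in ELS mice, and the latter was called, at 0.67 (adjusted p = 0.0112), without P200_20.1_ELS_LPS. Without P200_11.2_ELS_LPS the value for Klf6 in ELS mice was 0.24 (adjusted p = 0.494).

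Klf13, a Sin3-binding factor first described as a regulator of a chemokine gene in late activated T cells, had a lowest value of 44.2, a median of 60.04 and a highest value of 93.2 CPM in CTR-PBS mice. CTR-LPS mice had 134, 194 and 213 CPM and did not overlap them. ELS-PBS mice had 67.2, 79.1 and 133 CPM and the ELS-LPS mice had 59.8 (P200_11.2_ELS_LPS), 147, 155, 163 and 190.1 CPM. Of the 5 ELS-LPS mice, 4 lay above all ELS-PBS mice, and P200_11.2_ELS_LPS lay below them all. On the log2 scale the change was 1.51 ± 0.23 (SE) in CTR mice (adjusted p = 1.65e-06) and 0.72 ± 0.26 in ELS mice (adjusted p = 0.0545). Without P200_11.2_ELS_LPS the value in ELS mice was 0.92 (adjusted p = 0.00973), and 8 of 19 alternative fits called it, with adjusted p from 0.00973 to 0.167 over the 19. The test of the difference between conditions gave -0.79 ± 0.35 (SE), which had p = 0.0269 before and 0.746 after adjustment over all genes (edgeR).

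Klf3, the CtBP-binding repressor of the list, had 83.9, 96.5 and 107 CPM as lowest, median and highest value in CTR-PBS mice and 127, 164 and 197 CPM in CTR-LPS mice, with no overlap. ELS-PBS mice had 88.8, 101 and 136 CPM and the ELS-LPS mice 97.5, 131, 145, 157 and 201 CPM, which overlapped. The log2 fold change was 0.74 ± 0.18 (SE) in CTR mice (adjusted p = 0.00178) and 0.42 ± 0.20 in ELS mice (adjusted p = 0.174). Klf11, the closest relative of Klf10, had 0 to 11.08 CPM in CTR-PBS mice (median 5.25) and 6.48 to 14.6 CPM in CTR-LPS mice (median 10.7). Its ELS-PBS range of 4.94 to 13.5 CPM (median 10.3) lay within the ELS-LPS values of 5.27, 7.67, 10.3, 10.4 and 15.8 CPM except at the lower end. The log2 fold change of Klf11 was 0.87 ± 0.45 (SE, adjusted p = 0.204) in CTR mice and 0.05 ± 0.50 (adjusted p = 0.976) in ELS mice, so its 95% intervals, -0.02 to 1.76 and -0.95 to 1.05, do not settle the direction.

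**Figure D3:**
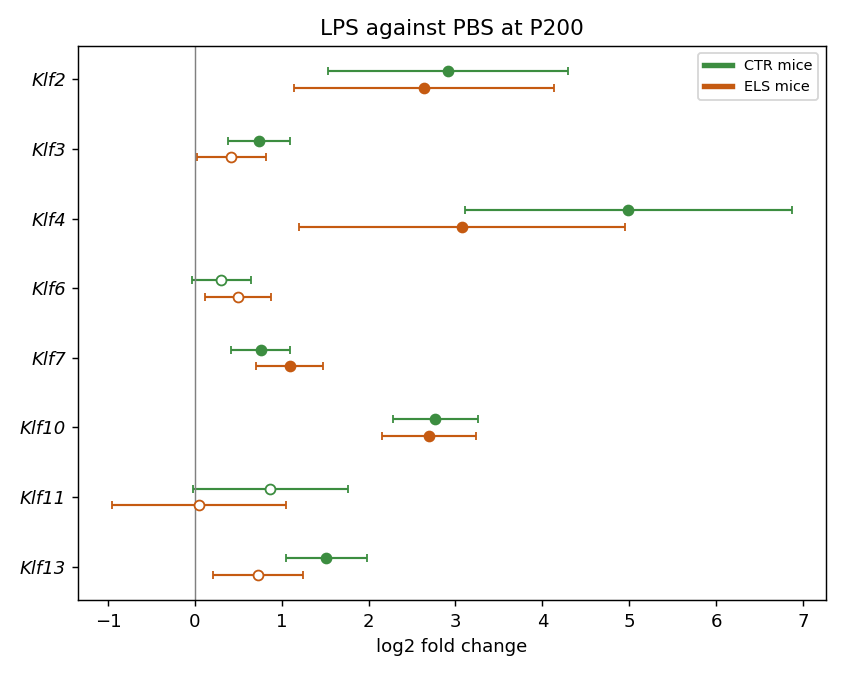
Log2 fold change (horizontal axis) of LPS-treated over PBS-treated mice for each of the 8 genes in CTR and in ELS mice, with 95% intervals as bars. Filled points passed the test, 6 in CTR and 4 in ELS mice, and open points did not, and Klf4, Klf2 and Klf10 lie farthest to the right.

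Past a log2 fold change of 1, 4 of 8 members were called in CTR mice (Klf2, Klf4, Klf10 and Klf13), against 9.62% of all genes, and 4 of 8 in ELS mice (Klf2, Klf4, Klf7 and Klf10), against 7.86%. The LPS and PBS groups did not overlap for 5 of 8 members in CTR mice, against 7.49% of all genes in either direction, and for 4 of 8 in ELS mice, against 10%. In the interaction test, which asks whether the LPS response differed between CTR and ELS mice, 0 of 8 members and 0% of all genes were called, and at an unadjusted p under 0.05 there was 1 member, Klf13, and 980 genes. Klf13 and Klf3, called in CTR mice only, are therefore not shown to differ between the conditions. Without P200_1.1_CTR_PBS the number called in CTR mice was again 6.

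Immediate early genes, which also respond to tissue handling, moved with LPS. Of the 15 tested in a list of 17 early and heat shock genes, 13 were higher in CTR and 12 in ELS mice. Among all genes tested, 8.73% and 7.4% were higher. Atf3 and the heat shock gene Hspa1a were called in neither condition, and the mean of Hspa1a was 6.03 and 7.88 CPM with PBS and LPS in CTR mice and 6.72 and 5.301 CPM in ELS mice. The summed level of the list was 881 to 1153 CPM in PBS-treated mice and 8881 to 15940 CPM in LPS-treated mice. The summed microglial markers were 73360 to 85330 CPM in PBS-treated and 60000 to 77250 CPM in LPS-treated mice. Their part in the changes of the 8 genes was not tested. Within groups, over 50 mice, the residual log2 CPM of Klf10 and Klf11 had a Pearson r of 0.49 and 0.42 with that of the summed early genes, and the residuals of Klf6, Klf13, Klf7 and Klf4 of -0.55, -0.47, -0.44 and -0.41. These are descriptions over mice that share 6 group means. They were not recomputed by rank or with any mouse left out. Mouse P9_19.2_ELS had the lowest Klf10 and Klf11 of the P9 mice and the highest Klf4, Klf6, Klf7 and Klf13. The lowest summed early-gene level of all mice, 110 CPM, was that of P9_19.2_ELS too. These extremes go in the same directions as the r values above, and the part of P9_19.2_ELS in those r values was not tested. Since the libraries are from pooled sorted cells of each mouse, fewer expressing cells and less RNA per cell cannot be told apart.

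The development from P9 to P200 was then compared within each condition, PBS-treated P200 mice against P9 mice. The CTR-PBS and ELS-PBS mice are the same libraries that served as the baseline for LPS. In CTR mice 2 of 8 members were higher at P200 (Klf3 and Klf6), against 17.4% of all genes, and 3 were lower (Klf2, Klf10 and Klf11), against 26.6%. In ELS mice 3 of 8 were higher (Klf3, Klf6 and Klf13), against 17.15%, and 1 was lower (Klf10), against 25%. The members therefore moved both ways, with a median log2 fold change of -0.27 in CTR and -0.05 in ELS mice beside -0.09 and -0.014 over all genes.

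Klf6 had a lowest value of 124, a median of 139.9 and a highest value of 170.1 CPM in P9-CTR mice, all below the lowest CTR-PBS mouse at 265.5 CPM. P9-ELS mice had 107, 156 and 289 CPM, the highest being P9_19.2_ELS, and overlapped the ELS-PBS mice at 226 to 327 CPM. P200 over P9 gave a log2 fold change of 1.00 ± 0.15 (SE) in CTR mice (adjusted p = 1.93e-07) and 0.68 ± 0.15 in ELS mice (adjusted p = 0.000244). Klf3 rose as well, from 36.6, 59.2 and 73.1 CPM in P9-CTR and 23.5, 67.5 and 86.8 CPM in P9-ELS mice as lowest, median and highest values. Neither P9 group overlapped the P200 group of its condition. Its log2 fold change was 0.77 ± 0.15 in CTR mice (adjusted p = 5.34e-05) and 0.84 ± 0.16 in ELS mice (adjusted p = 1.99e-05).

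Klf10 went the other way from Klf6. P9-CTR mice had 45.3, 66.6 and 109 CPM and P9-ELS mice 22.3 (P9_19.2_ELS), 64.1 and 98.7 CPM as lowest, median and highest value, overlapping the PBS-treated P200 mice. On the log2 scale the change was -0.73 ± 0.21 (SE) in CTR mice (adjusted p = 0.00356) and -0.77 ± 0.22 in ELS mice (adjusted p = 0.00341). By group mean Klf10 was thus lowest in PBS-injected P200 mice, higher in uninjected P9 mice and highest 3 hours after LPS. Klf11, also higher at P9, had 7.68, 15.6 and 20.3 CPM in P9-CTR mice and 1.17, 12.5 and 22.5 CPM in P9-ELS mice. It fell in CTR mice with a log2 fold change of -1.48 ± 0.42 (adjusted p = 0.00316), and in ELS mice the value was -0.45 ± 0.41 (adjusted p = 0.403). Without P200_1.1_CTR_PBS, which had 0 counts of Klf11, the value in CTR mice was -1.26 (adjusted p = 0.00227).

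Klf13 was between 34.2 and 74.7 CPM in P9-CTR mice (median 51.9) and between 20.07 and 104.6 CPM in P9-ELS mice (median 48.5). The change was 0.74 ± 0.20 (SE) on the log2 scale in ELS mice (adjusted p = 0.00281) and 0.29 ± 0.20 in CTR mice (adjusted p = 0.254). Klf7 changed by 0.19 (95% interval -0.11 to 0.49) in CTR mice and by -0.20 (-0.52 to 0.12) in ELS mice, and passed the test in neither. Klf2 had 0.133, 1.04 and 1.82 CPM in P9-CTR mice and 0.0807, 1.44 and 2.66 CPM in P9-ELS mice as lowest, median and highest value. It was called lower in CTR mice at -1.49 ± 0.61 (adjusted p = 0.0436), with -1.08 ± 0.62 (adjusted p = 0.164) in ELS mice. The call in CTR mice was lost, with adjusted p of 0.0841, 0.0902, 0.0784 and 0.0878, without P200_1.1_CTR_PBS, P200_15.1_CTR_PBS, P200_18.1_CTR_PBS or P200_18.2_CTR_PBS. In ELS mice Klf2 was called, at -2.12 (adjusted p = 0.0103), without P200_20.2_ELS_PBS. Klf4 had 0.124, 0.647 and 1.87 CPM in P9-CTR and 0, 0.574 and 6.74 CPM in P9-ELS mice, where the highest was again P9_19.2_ELS. Its log2 fold change was -1.36 ± 0.78 (adjusted p = 0.158) in CTR mice and 0.10 ± 0.74 (adjusted p = 0.93) in ELS mice, and it was called in CTR mice, at -2.11 (adjusted p = 0.0471), without P200_18.2_CTR_PBS. In ELS mice the Klf4 value was -0.57 without P200_4.1_ELS_PBS and -0.51 without P200_11.1_ELS_PBS, so its sign rested on single mice.

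Past a log2 fold change of 1, 2 of 8 members were called in CTR mice (Klf2 and Klf11), against 26.4% of all genes, and 0 of 8 in ELS mice, against 26.2%. The ages did not overlap for 2 of 8 members in CTR mice (Klf3 and Klf6), against 17.09% of all genes, and for 1 of 8 (Klf3) in ELS mice, against 11.6%. The interaction test of age by condition called 0 of 8 members, against 0.0299% of all genes, and 0 members had an unadjusted p under 0.05. The early genes moved with age too, with 9 of 15 higher in CTR and 10 in ELS mice, beside 17.4% and 17.15% of all genes. Their summed level was 110 to 609 CPM at P9. Border macrophage markers, at 475 to 920 CPM at P9 and at most 11.4 CPM at P200, and neuronal and astrocytic markers, at most 104 and 183 CPM at P9 and 12.5 and 13.5 CPM at P200, moved the other way. Of 6 endothelial markers tested, 4 were lower at P200 and 1 was higher, for CTR and ELS mice alike. The median over these 6 markers on the log2 scale was -3.895 for CTR and -3.521 for ELS mice. Their summed level overlapped between the ages. The part of each in the changes of the 8 genes was not tested. With the 2 P9-ELS mice of fewest detected genes left out, 5 members were called in CTR and 4 in ELS mice.

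**Figure D4:**
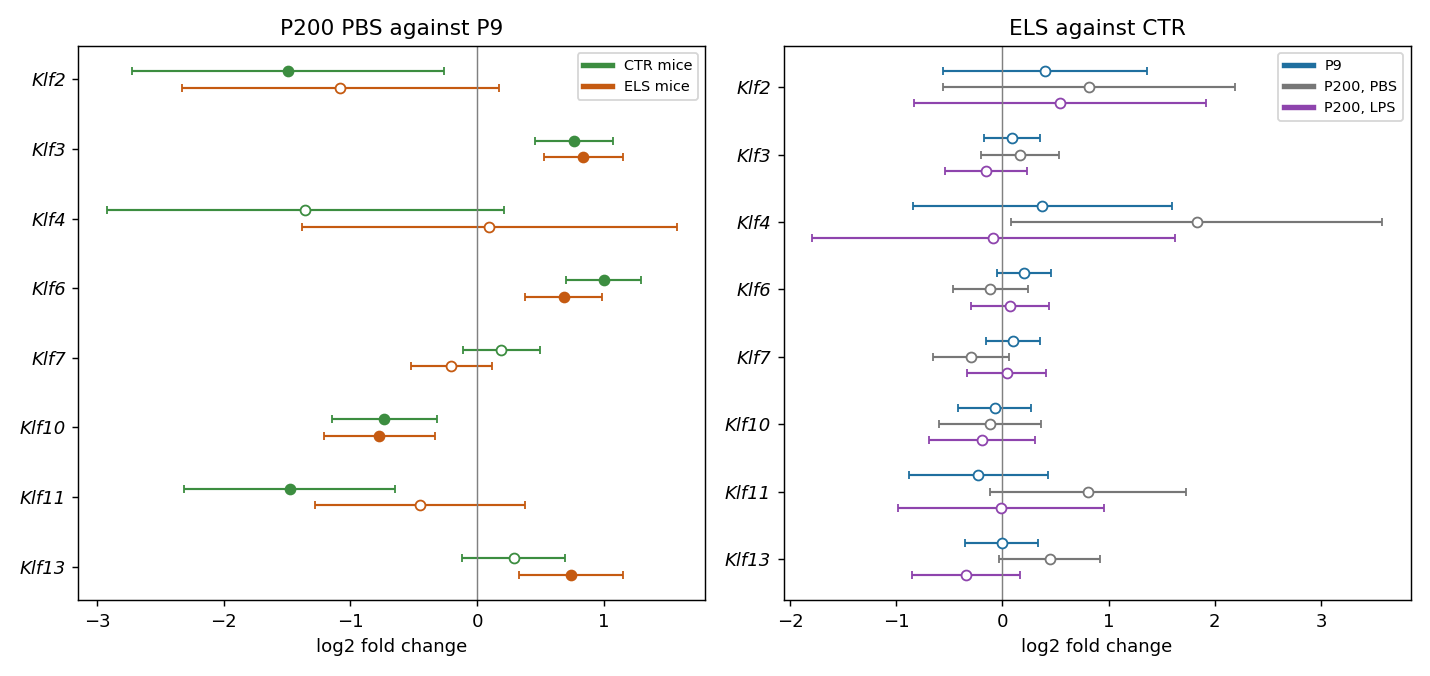
Log2 fold change (horizontal axis) with 95% intervals for each of the 8 genes, P200 PBS-treated over P9 mice on the left and ELS over CTR mice on the right. On the left, filled points mark the 5 genes called in CTR and the 4 called in ELS mice, and on the right all points are open.

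The effect of ELS itself was compared at P9, at P200 with PBS and at P200 with LPS. At P9 0 of 8 members were called, as were 0% of all genes, and 914 genes and 0 members had an unadjusted p under 0.05 (edgeR). In PBS-treated mice 0 of 8 members were called, against 0.168% of all genes, and in LPS-treated mice 0 of 8, against 0%, where 798 genes and 0 members had an unadjusted p under 0.05. The intervals treat every mouse as independent and bound the difference only on that footing. By the first number of their names, P9-CTR mice came from 5 nests, P9-ELS mice from 4 and each P200 group from 5. The model had no nest term, so intervals that count nests could be wider. For Klf6 the ELS over CTR log2 fold change was 0.20 (95% interval -0.05 to 0.45) at P9, -0.11 (-0.47 to 0.24) with PBS and 0.07 (-0.30 to 0.44) with LPS. For Klf3 the values were 0.09 (-0.17 to 0.36), 0.17 (-0.20 to 0.53) and -0.15 (-0.54 to 0.23). For Klf7 and Klf10 the difference farthest from 0 among the 3 comparisons was -0.29 (-0.65 to 0.06), for Klf7 with PBS.

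Klf4, Klf11 and Klf13 had wider or shifted intervals in the PBS-treated mice. The log2 fold change was 1.83 ± 0.87 (SE) for Klf4, 0.80 ± 0.46 for Klf11 and 0.45 ± 0.24 for Klf13, with adjusted p of 0.476, 0.611 and 0.564. Klf4 was the only member with an unadjusted p under 0.05 (0.0404, edgeR), and 1622 of the 16696 genes tested had one. Its higher ELS-PBS mean of 1.12 CPM lay above the rest through P200_4.1_ELS_PBS and P200_11.1_ELS_PBS, as the 6 mice had a median of 0.207 CPM beside 0.156 CPM in CTR-PBS mice. Leaving out 1 mouse at a time moved the Klf4 value between 1.16 (without P200_4.1_ELS_PBS) and 2.58 (without P200_18.2_CTR_PBS), Klf11 between 0.58 (without P200_1.1_CTR_PBS) and 1.08 (without P200_18.1_CTR_PBS), and Klf13 between 0.28 (without P200_4.1_ELS_PBS) and 0.56 (without P200_15.1_CTR_PBS). Klf2 had 0.40 (-0.56 to 1.36) at P9, 0.81 (-0.56 to 2.19) with PBS and 0.54 (-0.83 to 1.91) with LPS, intervals that leave room for a change of more than 2-fold in one direction. The value for Klf2 with PBS was -0.23 without P200_20.2_ELS_PBS, so 1 mouse set its sign. At P9 Klf4 had 0.38 with all mice and -0.39 without P9_19.2_ELS and P9_19.3_ELS, which were left out only together. Of this pair P9_19.2_ELS had 6.74 CPM, the highest P9 value, and P9_19.3_ELS had 0 counts. A mouse at 0 cannot hold the ELS mean up, so the positive sign went with P9_19.2_ELS.

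The 8 genes were set beside the rest of the Sp/KLF family. Of 18 other family genes listed, all in the table, 9 were expressed enough to be tested (Klf9, Klf12, Klf15, Klf16, Sp1, Sp2, Sp3, Sp4 and Sp9). After LPS 3 of 9 were higher in CTR mice and 1 of 9 in ELS mice, beside 8.73% and 7.4% of all genes, with medians of 0.52 and 0.05 on the log2 scale. Klf9, a Sin3-binding member known for its induction by glucocorticoids, had a mean of 0.328 CPM in CTR-PBS and 2.42 CPM in CTR-LPS mice, and of 0.508 and 2.58 CPM in the ELS groups. Its log2 fold change was 2.85 ± 0.71 (SE, adjusted p = 0.00311) in CTR mice and 2.33 ± 0.77 (adjusted p = 0.0356) in ELS mice. Klf16 was higher after LPS in CTR mice, by 1.23 ± 0.34 (adjusted p = 0.00767). In ELS mice, where it was not called, its mean was 3.72 CPM with PBS and 7.53 CPM with LPS. The LPS by condition interaction called 0 of the 9, beside 0% of all genes. With age 3 of 9 were higher and 1 lower in CTR mice, beside 17.4% and 26.6% of all genes, and 2 were higher and 0 lower in ELS mice, beside 17.15% and 25%. Klf12, a CtBP-binding repressor like Klf3, was higher at P200 by 1.71 ± 0.33 (adjusted p = 2.3e-05) in CTR and 2.197 ± 0.33 (adjusted p = 3.13e-07) in ELS mice, Sp4 by 1.13 ± 0.33 (adjusted p = 0.00386) and 1.71 ± 0.33 (adjusted p = 3.27e-05), and Klf9 was lower in CTR mice by -2.03 ± 0.65 (adjusted p = 0.00921). For ELS 0 of the 9 were called at P9, with PBS or with LPS, beside 0%, 0.168% and 0% of all genes. In these comparisons 0, 1 and 0 of the 9 had an unadjusted p under 0.05 (edgeR), as had 914, 1622 and 798 of all genes.

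Among 16 known regulators and partners of the family, all tested, LPS gave 1 higher and 2 lower in CTR mice. In ELS mice it gave 1 of each, and none was past a log2 fold change of 1 in either condition. Of all genes tested, 8.73% were higher and 6.2% lower in CTR mice, and 7.4% and 4.94% in ELS mice. The Mef2 factors are known to switch on Klf2 and Klf4. Mef2c, the most abundant of them, was lower after LPS by -0.59 ± 0.10 (SE, adjusted p = 7.35e-06) in CTR mice and -0.65 ± 0.11 (adjusted p = 1.63e-05) in ELS mice, and it is named here after its values were seen. From P9 to P200 2 of 16 partners were higher and 4 lower in CTR mice, beside 17.4% and 26.6% of all genes, and 3 were higher and 5 lower in ELS mice, beside 17.15% and 25%. The 2 past a log2 fold change of 1, both in ELS mice, were Mef2a and Sin3b, a gene of the Sin3 corepressor. Mef2a was higher by 1.38 ± 0.16 (adjusted p = 7.44e-10) and Sin3b lower at -1.11 ± 0.14 (adjusted p = 4.22e-09). In CTR mice their means moved the same way, Mef2a from 202 to 361 CPM and Sin3b from 90.5 to 53.5 CPM. The age by condition interaction called 0 of the 16 partners, beside 0.0299% of all genes. Sin3a, also among the partners, had means of 47.7 CPM in P9-ELS and 36.6 CPM in ELS-PBS mice. Of 5 genes known as direct targets of Klf2 in lymphocytes, S1pr1 and Itgb7 were tested. S1pr1, a sphingolipid receptor that Klf2 is known to activate, was lower after LPS, by -1.42 ± 0.17 (adjusted p = 4.69e-09) in CTR and -1.02 ± 0.19 (adjusted p = 1.12e-04) in ELS mice. Itgb7, an integrin chain, was higher, from a mean of 0.221 to 5.22 CPM in CTR mice (adjusted p = 0.00432) and from 0.197 to 5.61 CPM in ELS mice (adjusted p = 0.00801). For ELS 0 of these 18 partners and targets were called at P9, with PBS or with LPS. Of the 16 partners, 0, 2 and 1 had an unadjusted p under 0.05 in these comparisons (edgeR), as had 914, 1622 and 798 of all genes. Of all genes, 0% were called for ELS at P9, 0.168% with PBS and 0% with LPS.

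To find genes whose variation between mice of a group was most like that of each member, residuals of log2 CPM from the group mean were correlated over 50 mice with those of the other genes that had a mean log2 CPM of at least 3. The 3 closest genes had a Pearson r of 0.83 to 0.85 for Klf13 (Itpripl1, Gsk3b and Gnb1, Spearman's rho 0.80, 0.77 and 0.79) and of 0.81 to 0.82 for Klf3 (Gm42659, Gm43462 and 6430511E19Rik, rho 0.72, 0.60 and 0.67). For Klf6 they were Zfyve21, Hbp1 and Cnot8 (r 0.81, 0.79 and 0.79, rho 0.68, 0.65 and 0.66), and for Klf7 Ssb, Atrx and Smarca5 (r 0.72, 0.71 and 0.71, rho 0.63, 0.65 and 0.60). Klf10 had Alg2, Qrich1 and Gpat4 (r 0.67, 0.66 and 0.65, rho 0.57, 0.45 and 0.41). For Klf11 the Pearson r of Armh3, Nudt18 and Rad51d was 0.87, 0.86 and 0.86 but rho was 0.43, 0.52 and 0.46, and Klf11 was the member whose residual went most with the number of genes detected (r 0.56). The sparse counts of Klf4 (Zfp825, Upf2 and Hddc3, r 0.60, 0.56 and 0.55) and Klf2 (Peak1, Nrg4 and Tmem165, r 0.52, 0.46 and 0.45) gave the weakest likeness, which is no finding. Ranked by Spearman's rho instead, 6 of these 24 genes stayed among the closest 3. All of these values share libraries and normalization, and they say nothing of shared control.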

How the data were processed

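RNA of sorted hippocampal microglia from 50 male mice was sequenced as 1 poly-A library per mouse. The authors deposited 1 file of whole-number counts per gene for each library. Per the submitters' processing notes and the study's methods, reads were demultiplexed with bcl2fastq 2.20, trimmed with cutadapt 2.10, aligned to GRCm39 with STAR 2.5.4 and counted with HTSeq 0.11.0. The annotation release and the strand setting of the counting were not given in the sources used here. Library totals were 5152838 to 42231258 counts, and the counts carry no molecular identifiers.

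The filter kept a gene when more than 2 mice reached 1 CPM. TMM-normalised counts were fitted with edgeR 4.0.16 (R 4.3.3) in 1 quasi-likelihood model of the 6 groups, and p-values were adjusted by Benjamini-Hochberg over all genes tested. A gene was called when its adjusted p was below 0.05 and its log2 fold change exceeded 0.1 in size. Intervals are 95%. CPM levels used the TMM-scaled library sizes, and a prior count of 2 entered the log2 CPM values. The text names all 8 members, those of the listed family, partner and target genes that were called past a log2 fold change of 1, Mef2c, Atf3 and Hspa1a, which were chosen after their values were seen, and the 3 genes closest to each member in residual log2 CPM. Members and lists were chosen with earlier results of these data known. The first number in the name of a mouse was taken as its nest, which the labels do not state. Mice sharing it are not known to be independent, so p-values measure the spread between these mice. Alternatives were a likelihood-ratio test, DESeq2 1.42.0 and its size factors, no filter, only the compared groups, limma 3.58.1 (voom) with nest as a random effect, a replicate block on the nest number, a log2 fold change threshold of 1, and leaving out mice. The edgeR fit was tested on simulated data for the LPS comparison in CTR mice only. Sequences and motif counts were read with Python 3.11.15 from GRCm39 with the GENCODE M39 annotation. The nest number was checked as a pairing over 10 nests at P200, where residuals of mice sharing a number correlated at -0.041 to 0.084. It was not taken to pair them, but an r from 1 or 2 mice per treatment cannot show that they are unpaired. With it as a block, 6 members were called after LPS in ELS mice, against 4 in the main fit and 5 in the same mice without it.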

Additional observations from a re-analysis of the deposited data

Results flagged for a closer look

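The 8 genes were checked in the 4 P200 groups, 32 sets of values, for a mouse set apart from the rest of its group, and 4 sets had one. Chance alone sets apart a mouse in about 1 in 20 groups. All 4 were the lowest value of the group and came from the same pair of mice.

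In the CTR-PBS mouse P200_1.1_CTR_PBS Klf10 stood at 4.50 log2 CPM (442 counts), with the next mouse at 5.37. Klf11 had 0 counts in that mouse, -3.42 log2 CPM with the prior count, and the next mouse stood at 1.53. This library had 12854 detected genes, the fewest of any P200 mouse.

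In the ELS-LPS mouse P200_11.2_ELS_LPS Klf10 stood at 7.47 log2 CPM, with the next mouse at 7.99, and Klf13 at 5.90 log2 CPM, with the next mouse at 7.20. The same mouse had the highest Klf6 (619 CPM) and Klf2 (7.54 CPM) of its group.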

How the results depend on the processing

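Over 1319 alternative values of the log2 fold changes of single members, 1300 stayed on the same side of the threshold, 13 calls were gained, 6 were lost and 0 reversed a called direction. All 6 losses were of Klf2 between P9 and P200 in CTR mice. With a log2 fold change threshold of 1, the members called with age were 2 in CTR and 0 in ELS mice, in place of 5 and 4. Leaving out each P200 mouse in turn gave 4 to 5 members with age in either condition, 6 to 6 after LPS in CTR mice, 4 to 5 after LPS in ELS mice and 0 to 0 for ELS at P200 and both interactions. P9 mice were not left out one by one. Several values for ELS that were not called changed sign under an alternative, among them Klf2 with PBS and Klf4 at P9.

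With the nest number as a replicate block among P200 mice, 6 members were called after LPS in CTR mice, 6 in ELS mice (Klf3 and Klf13 added) and 0 in the interaction. The same mice without the block, a fit chosen after seeing the data, gave 6, 5 and 0. The cause was not tested.

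Voom moved low counts most: Klf4 after LPS in ELS mice was 5.01 (4.57 with the replicate block), Klf2 with age in CTR mice -2.44, and Klf11 -2.59. Klf11 was called after LPS in CTR mice by voom alone, at 1.93 (adjusted p = 0.0368). Klf2 and Klf4, near 0 CPM with PBS, are the members whose depth limits precision.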

Other observations

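The 8 genes did not vary as 1 block between mice of a group. Over the 28 pairs of members, the residual log2 CPM of 50 mice had a median Pearson r of 0.10, and 9 pairs were below 0. The highest was Klf10 with Klf11 at 0.55 (Spearman's rho 0.38) and the lowest Klf4 with Klf10 at -0.43 (rho -0.27), although both of the latter were higher after LPS in both conditions. Klf3 and Klf13 had an r of 0.47. These values are a description over mice that share libraries, normalization and group means. P200_1.1_CTR_PBS had the lowest Klf10 and Klf11 of its group, and P9_19.2_ELS the lowest of the P9 mice. The part of these mice in the r values was not tested, as no mouse was left out.

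Mouse P9_19.2_ELS had the highest Klf4, Klf6, Klf7 and Klf13 of the P9 mice (6.74, 289, 113 and 104.6 CPM) and the lowest Klf10 and Klf11 (22.3 and 1.17 CPM).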
